A study of Ovis aries with 36 samples.

Results

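TPM3 encodes the slow skeletal muscle form of tropomyosin, and 33 of 7694 other loci with an Ensembl gene followed its level across 9 muscles of 4 lambs. A locus was taken as a member when the Pearson correlation of its level with that of TPM3 was at least 0.75. The level was log2(CPM + 1), where CPM is the count of a locus scaled to the sample's total over loci with an Ensembl gene, and each animal's mean over its 9 muscles was subtracted before the correlation was computed. Loci had to have a mean of at least 10 counts over the 36 samples, and TPM3 itself was left out. The 33 members were 0.429% of the loci that could have been chosen. The members were thus chosen by their measured levels in all 36 samples, and every difference between muscles reported for them, counts of members past a threshold included, is a description and not evidence of that difference.

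RNA-Seq was performed on Psoas major (PM), Gluteobiceps (GB), Supraspinatus (SS), Gluteus medius (GM), Adductor (AD), Semimembranosus (SM), Rectus femoris (RF), Longissimus lumborum (LL) and Semitendinosus (ST). The same 4 lambs gave every muscle, so that each muscle had 4 biological replicates, called animals 1 to 4. All were unrelated male Poll Dorset crosses, kept on grassland with soy crop and sorghum grain after weaning and slaughtered at 14 months, and there was no treatment. Whole pieces of muscle were ground, so that fewer cells of a type and less RNA per cell cannot be told apart, and markers of other cell types could not be looked up because no source used here pairs those symbols with loci.

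Skeletal muscles are mosaics of slow and fast fibres, which use different genes for the same parts of the contractile machinery. Tropomyosin lies along the thin filament, and together with the troponin complex it lets calcium switch contraction on. Slow fibres contract slowly, resist fatigue and share many of their proteins with the heart, including slow troponins, slow myosin chains and the calcium pump SERCA2.

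The samples held 3699148 to 6427422 counts, of which 905623 to 1878225 fell on loci with an Ensembl gene. The share on such loci averaged 22.2% in SM and 23.3% in ST, and 26.0% to 27.3% in the other muscles. Animal 1 had the smallest totals, between 3699148 and 5317026. Libraries were run in 4 lanes of 9, and which lane held which sample was not given in the sources used here.

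The position of a locus, given on Oar_v3.1 and counted from 1, was matched with the coordinates printed for named genes of the study. This gave 11 members a symbol. For MYLK3 the printed start lies outside the locus and only the printed end lies within it, so that symbol rests on the end. A further 4 members lay at positions shared by several Ensembl loci with a mean of at least 10 counts, and are called by the position. The other 18 are called locus 4, locus 9 and so on, after their rank by correlation with TPM3, and each is given with its position. Protein and genome sequences were not used here. For 4 named members, sequence from the study is at hand in the primers of its quantitative RT-PCR assays, shown 5′ to 3′ because they tie the symbols of 4 of the members described below to transcript sequence.
TNNT1 forward: gaaagaggaagaggagctggt
TNNT1 reverse: ggttctgaagcgctgttgttc
TNNC1 forward: aggagatgattgacgaggtgg
TNNC1 reverse: cttcatgcagcgaaccatcat
MYL3 forward: tctccaagaacaaggacaccg
MYL3 reverse: atcttctgtcagcctctcacc
MYOZ2 forward: accacggttactgagatggg
MYOZ2 reverse: ggtgaagcagaggaaagagc

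TPM3 (ENSOARG00000001845, chr1:103039221-103067829) was highest in PM and lowest in ST. In animals 1 to 4 its level was 744, 729, 1032 and 957 CPM in PM, 542, 501, 629 and 714 CPM in GB and 355, 428, 739.8 and 675 CPM in SS. It was 311, 408, 615 and 311 CPM in GM, 195, 228, 381 and 359 CPM in AD and 199, 149.5, 343 and 267 CPM in SM. The lowest levels were 85.3, 131, 196 and 316 CPM in RF, 149, 167, 169 and 104 CPM in LL and 38.9, 39.1, 72.0 and 62.8 CPM in ST. The order of the means was PM, GB, SS, GM, AD, SM, RF, LL and ST. Only PM and GB, and LL and ST, were neighbours in this order whose samples did not overlap. Paired within animals, TPM3 was also higher in SS than in GM in 4 of 4 animals, by 0.41 ± 0.48 on the log2 scale (SD, n = 4). The other neighbours changed places in at least 1 animal, so their order is not resolved with 4 animals. Muscles further apart could be, as SS was above AD in 4 of 4 animals, by 0.91 ± 0.04. The mean fell from 866 ± 152 CPM in PM to 53.2 ± 16.8 CPM in ST (SD, n = 4). A locus without an Ensembl gene has the same coordinates as TPM3, and reads of loci that overlap cannot be told apart here because no use of strand in the counting was stated.

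The members were low in ST and high in PM, SS and GB, and which of these 3 was highest differed between members. All 33 were higher in SS than in ST, in PM than in ST and in GB than in ST in each of the 4 animals. Over the 7694 loci these shares were 15.7%, 13.6% and 21.3%. ST had the lowest mean of the 9 muscles for 32 of 33 members and was the lowest muscle in all 4 animals for 14, the exception by mean being locus 24, whose lowest mean was in LL. The highest mean was in PM for 15 members, in SS for 14 and in GB for 4. The mean over members of the centred log2 level was 0.86 ± 0.21 in PM, 0.81 ± 0.21 in SS and 0.64 ± 0.10 in GB (SD over 4 animals). It was -1.54 ± 0.06 in ST and -0.68 ± 0.28 in LL. These directions follow from how the members were chosen.

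**Figure D1:**
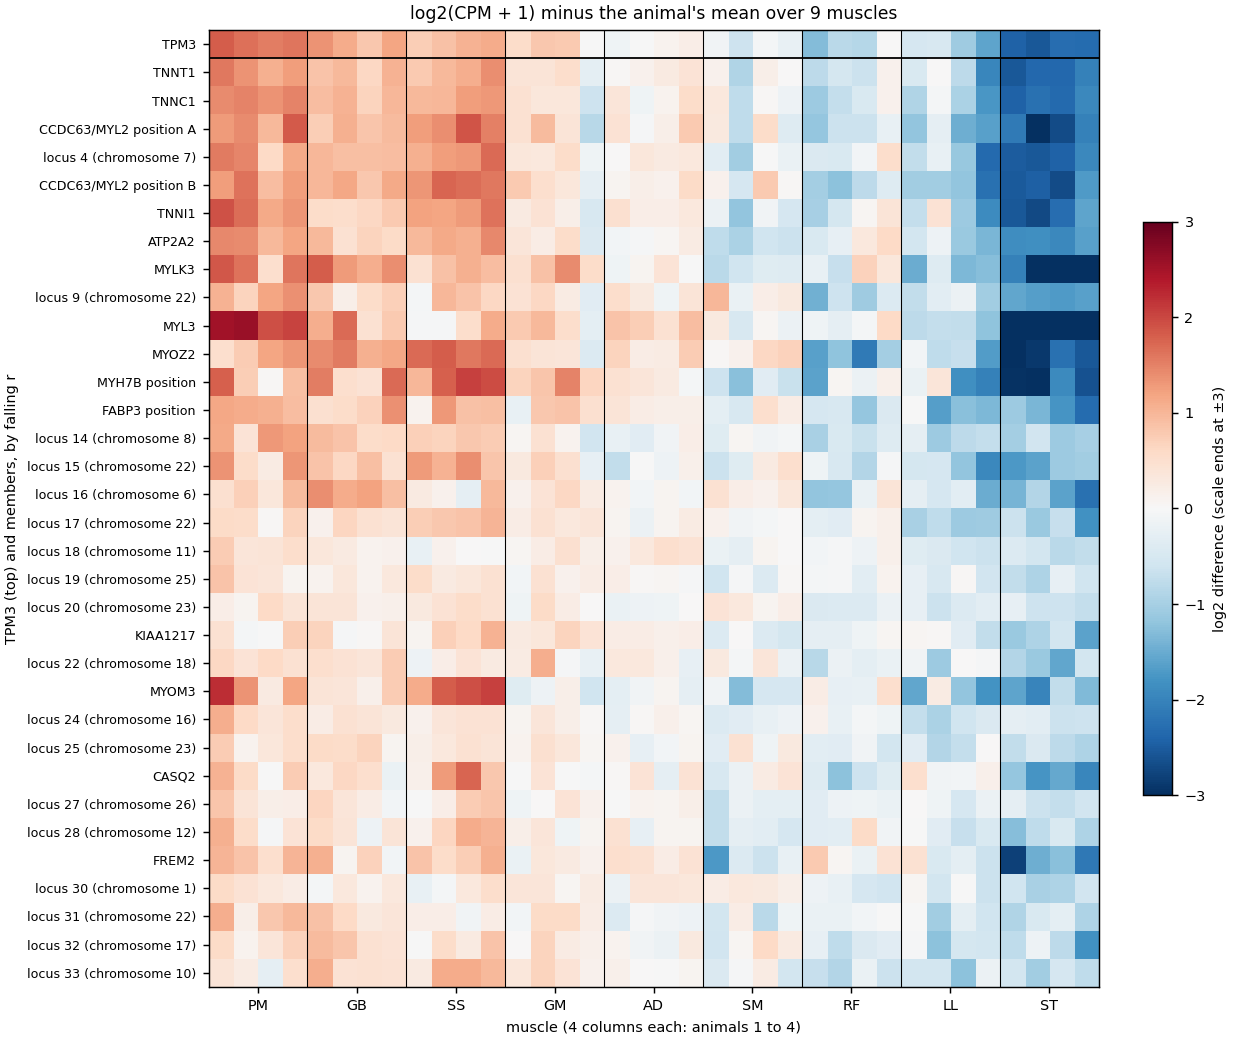
Level of TPM3 (top row) and of the 33 members in 36 samples, as log2(CPM + 1) minus the mean of the same animal over 9 muscles, with muscles ordered by the mean of TPM3 and 4 columns per muscle for animals 1 to 4. Red is above and blue below the animal's mean. The 4 ST columns are the lowest of the 9 muscles by mean in 32 of 33 members.

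Genes of all 3 troponin subunits were members, and TNNT1 and TNNC1 had the highest correlations with TPM3 of the 33. TNNT1, slow troponin T, which anchors the troponin complex to tropomyosin, had r = 0.976 (chr14:59547242-59556889). Its level in animals 1 to 4 was 1021, 1022, 996 and 1039 CPM in PM, 584, 784, 1019 and 1145 CPM in SS and 56.9, 76.6, 91.9 and 105 CPM in ST. All SS samples were above all ST samples, and the difference of SS minus ST was 3.39 ± 0.06 on the log2(CPM + 1) scale (SD, n = 4). TNNC1, the slow and cardiac troponin C that binds calcium, had r = 0.974 (chr19:48403558-48406316). It stood at 961, 1401, 1522 and 1315 CPM in PM, 713, 995, 1412 and 1159 CPM in SS and 66.0, 104, 116 and 122 CPM in ST. TNNI1, slow troponin I, the inhibitory subunit, had r = 0.937 (chr12:78585640-78596742). Its values were 236, 268, 265 and 254 CPM in PM, 146, 189.9, 293 and 312 CPM in SS and 9.94, 11.9, 23.8 and 33.1 CPM in ST. For all 3 subunits the ST samples were below every PM, SS and GB sample.

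In RF and LL, the troponin genes spread widely over the animals, and the order of the animals differed between these muscles. In LL, TNNT1 was at 248, 400.0, 278 and 110.3 CPM in animals 1 to 4, and TNNI1 at 37.8, 112, 55.6 and 26.3 CPM. Animal 4 was the lowest and animal 2 the highest in LL for both. In RF, TNNT1 was at 197, 277, 306 and 475 CPM and TNNI1 at 30.7, 57.8, 125 and 132 CPM, with animal 1 lowest and animal 4 highest. RF therefore exceeded LL for TNNT1 in 2 of 4 animals, with a difference of 0.34 ± 1.20 on the log2 scale (SD, n = 4), and TPM3 gave 0.17 ± 1.04, also in 2 of 4.

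Light chains of slow myosin were members as well. MYL3, the essential light chain of slow and ventricular myosin, had r = 0.909 and rose by 1.27 log2 units per log2 unit of TPM3, the steepest slope of the 33 members (chr19:52560400-52569198). It was at 764, 723, 748 and 712 CPM in PM, 129, 118, 282 and 372 CPM in SS and 284, 395, 267 and 296 CPM in GB. In ST it was at 4.52, 4.25, 20.6 and 11.7 CPM, where the smallest count was 5. PM stood apart from every other muscle for MYL3, with its lowest sample above the highest sample of the other 8. The position of MYL2, the regulatory light chain of slow and ventricular myosin, and of CCDC63, a coiled-coil protein gene, is held by 2 loci with the same coordinates (chr17:54257918-54303146). Both were members, with r = 0.947 for the first, called position A, and 0.946 for position B. Position A was at 455, 550.5, 803 and 572 CPM in SS and 43.4, 23.8, 32.8 and 47.6 CPM in ST, and position B at 142, 191, 232 and 211 and 9.04, 9.36, 10.3 and 20.7 CPM. Which locus is which gene was not given, and their reads may be shared.

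MYLK3, the cardiac myosin light chain kinase, had r = 0.920 (chr14:14547940-14606419), with 188, 200.2, 104 and 152 CPM in PM, 181, 158, 156 and 131 CPM in GB and 11.7, 6.81, 5.78 and 4.83 CPM in ST. GB and PM overlapped, and both were above ST in all samples. At the position of MYH7B, a slow-type myosin heavy chain gene, the locus that followed TPM3 had r = 0.899 (chr13:63837469-63938828), while another locus with the same coordinates had r = 0.0308. The member at this position was at 196, 342, 314 and 316 CPM in SS, 339.9, 163, 77.3 and 153 CPM in PM and 11.7, 8.51, 19.3 and 12.4 CPM in ST. Its PM samples spread from 77.3 to 339.9 CPM, with animal 1 the highest and animal 3 the lowest.

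Locus 4 (chr7:21104083-21157369) held more counts than any other member, with a mean of 7459 per sample. It had r = 0.946 and stood at 6289.6, 9649, 11583 and 12694 CPM in SS, 8942, 11050.0, 7218 and 8630.4 CPM in PM and 532, 683, 888 and 1032 CPM in ST. Its lowest SS sample was above its highest ST sample, and SS minus ST was 3.68 ± 0.11 on the log2 scale (SD, n = 4). The 33 members together took 1.81% ± 0.454 of Ensembl counts in SS, 1.79% ± 0.151 in PM and 0.235% ± 0.0414 in ST (SD, n = 4). Without locus 4 these shares were 0.805% ± 0.177, 0.894% ± 0.0203 and 0.157% ± 0.0210, so SS and PM changed places in this order, and their samples overlap either way.

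**Figure D2:**
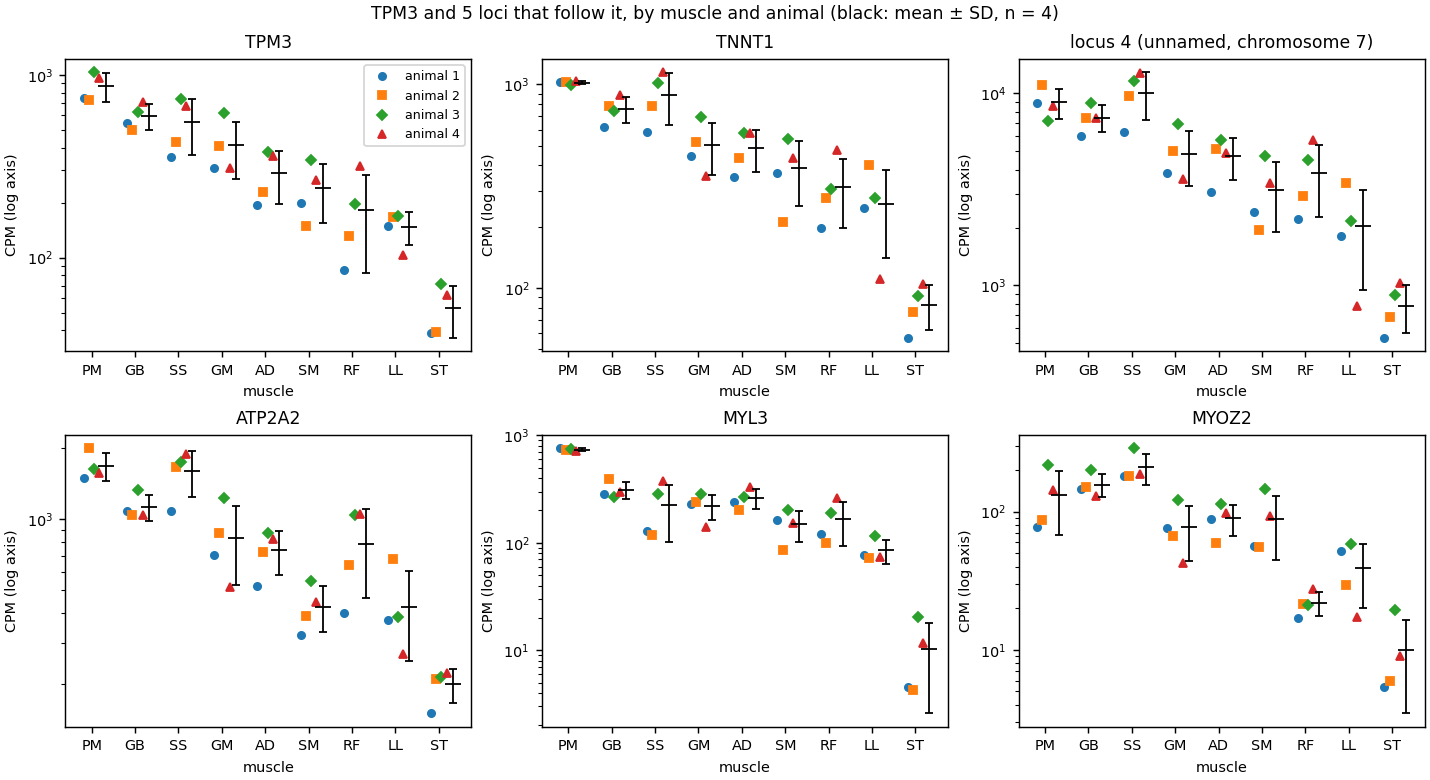
Level of TPM3, TNNT1, locus 4, ATP2A2, MYL3 and MYOZ2 in CPM on a log axis, by muscle, with a symbol for each animal and the mean ± SD (n = 4) in black. MYL3 is highest in PM in every animal, whereas MYOZ2 is higher in SS than in PM in every animal and drops in RF.

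Genes of the Z-disc and M-band, which anchor the thin and thick filaments, were also members. MYOZ2, a calsarcin, which is a Z-disc protein of slow and cardiac muscle that binds calcineurin, had r = 0.901 (chr6:6264895-6303407). It was at 180.4, 181, 289 and 188 CPM in SS, 77.5, 87.2, 216 and 144 CPM in PM and 146, 152, 199.9 and 129.5 CPM in GB. In RF it was at 17.1, 21.5, 21.0 and 27.6 CPM and in SM at 56.3, 55.5, 146 and 92.8 CPM, so that the lowest SM sample was above the highest RF sample. MYOM3, a myomesin of the M-band, had r = 0.793 (chr2:241688442-241741074), with 117, 131, 253 and 159 CPM in SS, 253, 95.4, 78.0 and 87.2 CPM in PM and 17.2, 8.51, 38.6 and 14.5 CPM in ST. ST was the lowest muscle of MYOM3 in 2 of 4 animals, since LL was lower than ST in animals 3 and 4, at 28.1 and 10.3 CPM.

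Both calcium-handling members act in the sarcoplasmic reticulum. ATP2A2 encodes SERCA2, the calcium pump of slow and cardiac muscle, and had r = 0.929 (chr17:53803321-53860163). Its level was 1489, 1999, 1625 and 1572 CPM in PM, 1081, 1663, 1745 and 1887 CPM in SS and 151, 210.2, 216 and 224 CPM in ST. In RF it was at 400.1, 638, 1036 and 1056 CPM against 325, 388, 545 and 447 CPM in SM, so that RF was above SM in all 4 animals. CASQ2, the cardiac and slow form of the calcium store protein calsequestrin, had r = 0.783 (chr1:92170833-92243108). CASQ2 stood at 19.4, 42.2, 58.8 and 38.5 CPM in SS, 24.8, 15.6, 15.8 and 24.4 CPM in LL and 7.23, 4.25, 5.14 and 4.83 CPM in ST, with a mean of 30.5 counts per sample. Its ST samples were all below its LL samples, while SS and LL overlapped.

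The remaining members with a name or shared position have other roles. The position of FABP3, the heart-type fatty acid binding protein that carries fatty acids in oxidative fibres, held a member with r = 0.892 (chr2:235135327-235198261) and another locus with r = 0.287. The member was at 141, 74.9, 120.0 and 131 CPM in PM, 61.9, 10.2, 23.4 and 26.3 CPM in LL and 28.9, 12.8, 16.1 and 13.1 CPM in ST. Animal 1 of ST was above 3 of the 4 LL samples. FREM2, an extracellular protein of basement membranes, had r = 0.772 (chr10:23560959-23715430), with 13.1, 21.1, 26.3 and 26.3 CPM in PM and 0.00, 3.40, 7.07 and 2.07 CPM in ST, where animal 1 had no count. KIAA1217 had r = 0.807 (chr13:24120815-24477979), with 55.0, 119.8, 75.4 and 106 CPM in SS and 23.5, 37.4, 33.4 and 15.9 CPM in ST.

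The unnamed loci mostly had shallower slopes than the named ones. Names came from genes that the study listed for differences between these same samples. This contrast therefore follows at least in part from the naming and is a description only. The slope on TPM3 was below 0.5 for 14 members, of which 13 were unnamed, and the median slope was 0.585. The means of the highest and the lowest muscle differed by more than 2 on the log2 scale for 18 members, 14 of them among the 15 with a name or shared position. Locus 9 (chr22:17977310-17986653, r = 0.911) and locus 15 (chr22:14761187-14798318, r = 0.884) were near the count minimum, with means of 12.2 and 10.9 counts. Locus 9 was at 15.9, 8.20, 25.5 and 17.9 CPM in PM and 1.81, 0.851, 2.57 and 1.38 CPM in ST. At this depth a single ST sample of locus 9 rests on very few counts, the smallest being 1.

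Of the unnamed loci with more counts, locus 14 (chr8:19396081-19553431, r = 0.889) was at 428, 322, 590.5 and 517 CPM in PM, 320.5, 384, 417 and 375 CPM in SS and 96.7, 163, 111 and 109.8 CPM in ST. Animal 2 of ST was the highest of the ST samples and still below every PM and SS sample. Another locus with the coordinates of locus 14 had r = -0.412. Locus 16 (chr6:18259217-18394393, r = 0.863) was highest in GB, at 50.1, 57.0, 95.2 and 44.3 CPM, against 22.4, 28.5, 33.9 and 46.3 CPM in SS. Locus 17 (chr22:15995348-16019759, r = 0.839) was at 98.3, 103, 113 and 101 CPM in SS, 29.3, 34.3, 28.7 and 23.1 CPM in LL and 37.0, 26.4, 37.9 and 13.1 CPM in ST. LL and ST overlapped for locus 17, and both were below every other sample of it.

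Locus 18 (chr11:26540750-26578463, r = 0.816), locus 19 (chr25:9356499-9442092, r = 0.812) and locus 20 (chr23:37746273-37776283, r = 0.808) had slopes of 0.259, 0.263 and 0.254. Locus 19 was at 596, 478, 624 and 547 CPM in PM and 197, 189, 404 and 338 CPM in ST, and the smallest PM sample was above the largest ST sample. Locus 18 was at 136, 88.4, 119 and 145 CPM in PM and 59.6, 46.8, 52.0 and 60.1 CPM in ST, and locus 20 at 189, 222, 358 and 280.1 and 138, 136, 154 and 128 CPM. The other unnamed members were locus 22 (chr18:43292839-43473440), locus 24 (chr16:31123293-31267298), locus 25 (chr23:50585722-50644969), locus 27 (chr26:35742823-35850524), locus 28 (chr12:4141260-4166043), locus 30 (chr1:261195348-261207875), locus 31 (chr22:6716986-7267215), locus 32 (chr17:29451072-29495528) and locus 33 (chr10:35915236-35988302), with r from 0.757 to 0.805. The 33 members lay on 18 chromosomes, with 4 on chromosome 22 and 4 on chromosome 17.

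The members had more counts and somewhat longer loci than the rest. Their median mean count was 125.3 against 34.9 over the 7694 loci, and their median length was 53287 against 34716 bases. Coordinates were shared with another locus for 14 of 33 members (42.4%) and for 28.7% of the 7694 loci. The median correlation with TPM3 over these loci was 0.128, with 5% below -0.281 and 5% above 0.491. Just inside the threshold were FREM2 (r = 0.772), locus 30 (0.770), locus 31 (0.766), locus 32 (0.766) and locus 33 (0.757). Just outside were loci on chromosomes 3 (chr3:7480410-7510436, r = 0.747), 12 (chr12:28078832-28126684, 0.745), 10 (chr10:34830023-34865394, 0.743), 1 (chr1:89444582-89477240, 0.741) and 3 (chr3:33293757-33338517, 0.740).

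How closely the members followed TPM3 differed between animals. The correlation over the 9 muscles of a single animal was positive in all 4 animals for 33 of 33 members and at least 0.75 in each animal for 17. For TNNT1 it lay between 0.974 and 0.980, and for MYLK3 between 0.844 and 0.994. The lowest value was 0.410, for locus 28 in animal 3. Without the 4 ST samples 18 members kept r of at least 0.75, and without the 4 SS samples all 33 did. CASQ2 dropped from 0.783 to 0.574 without ST, FREM2 from 0.772 to 0.559 and KIAA1217 from 0.807 to 0.673.

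**Figure D3:**
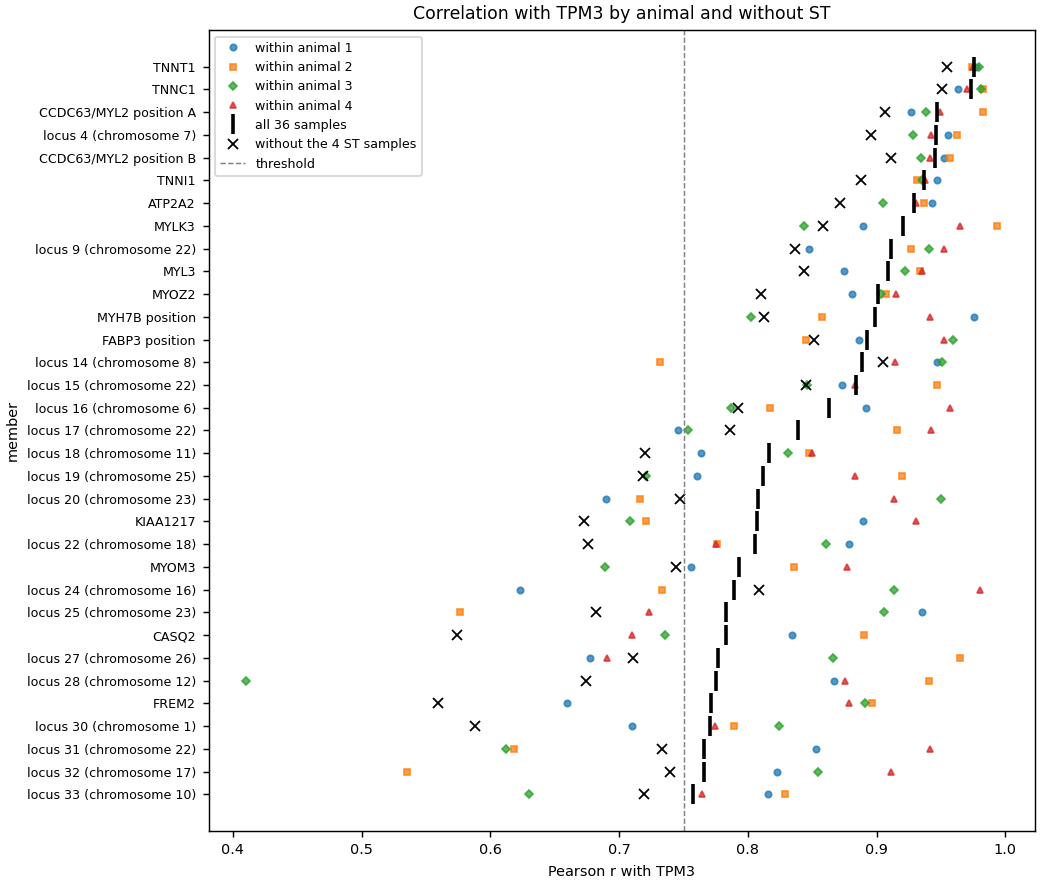
Pearson r with TPM3 for each of the 33 members, over all 36 samples (bars), within each animal over 9 muscles (coloured symbols) and without the 4 ST samples (crosses), with the threshold of 0.75 dashed. Without ST, 18 members stay at or above the threshold, and the lowest value within an animal is 0.410.

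When the rule was applied to 3 animals, the loci it chose also tended to follow TPM3 in the animal left out. With animals 1, 2, 3 and 4 left out in turn, 38, 42, 42 and 34 loci were chosen, of which 29, 29, 31 and 28 were among the 33 members. In the animal left out, 23, 22, 24 and 25 of them reached r of at least 0.75, which is 60.5%, 52.4%, 57.1% and 73.5%. Over all 7694 loci the shares in the same animals were 3.09%, 2.05%, 1.57% and 4.52%. These shares are a description and carry no test. The study listed TPM3 for a difference between ST and SS in these same 4 animals, so the animal left out is not independent of the choice of TPM3. All the loci so chosen had a positive r in the animal left out, with medians of 0.828, 0.783, 0.813 and 0.914.

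Members departed from TPM3 in different muscles. For each member a line on TPM3 was fitted over the centred levels, and the distance from that line is given in log2 units as the mean ± SD of the 4 animals. MYL3 lay -0.81 ± 0.37 from its line in SS, -0.98 ± 0.55 in ST and 0.98 ± 0.41 in RF. It was below the line in SS in 4 of 4 animals and above it in RF in 4. MYOM3 lay 1.06 ± 0.32 from its line in SS, above it in 4 of 4 animals. MYOZ2 lay -0.76 ± 0.48 in PM and -0.73 ± 0.48 in RF, and was below its line in both muscles in 4 of 4 animals. The member at the MYH7B position lay -0.86 ± 0.60 in PM. In SS, 16 members were above their line in all 4 animals and 4 below it. In PM none was above it in all 4 animals and 10 were below it. All lines were fitted on the same TPM3 levels, so a high or low TPM3 level in a muscle shifts all members the same way. The members in these counts are therefore not separate departures. The part of TPM3 itself was not tested, and the same counts over all loci were not made.

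Paired within animals, MYL3 and MYOZ2 split in opposite directions between PM and SS. MYL3 was higher in PM, by 2.56, 2.61, 1.40 and 0.93 log2 units in animals 1 to 4, a mean of 1.88 ± 0.84 (SD, n = 4). For MYOZ2 the differences of PM minus SS were -1.21, -1.05, -0.42 and -0.38, a mean of -0.76 ± 0.43. TPM3 itself was higher in PM in all 4 animals, by 0.70 ± 0.27. Of the 33 members, 4 were higher in PM than in SS in all 4 animals, 3 were lower in all 4, and 26 went both ways. Over the 7694 loci, 14.1% were higher in PM and 8.07% lower in all 4 animals, so these counts are not particular to the members.

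SM and RF divided other members. MYOZ2 was higher in SM by 1.67, 1.33, 2.75 and 1.71 log2 units in animals 1 to 4. ATP2A2 had differences of SM minus RF of -0.30, -0.72, -0.92 and -1.24, and FREM2 of -2.50, -0.46, -0.43 and -0.66. The FREM2 value of -2.50 rests on 1 count in SM of animal 1. Thus MYOZ2 was higher in SM, and ATP2A2 and FREM2 higher in RF, in 4 of 4 animals, while TPM3 differed by 0.49 ± 0.64 and was higher in SM in 3 of 4. Of the 33 members, 9 were higher in SM and 5 higher in RF in all 4 animals, beside 16.2% and 6.51% of the 7694 loci. SM had the lowest share of counts on Ensembl loci of the 9 muscles, and its part in these differences was not tested. CASQ2 was lower in RF than in LL in all 4 animals, with RF minus LL at -0.77 ± 0.29 on the log2 scale (SD, n = 4), while TPM3 was higher in RF in 2 of 4. It was the 1 member lower in RF in all 4 animals and 6 were higher, beside 5.35% and 12.7% of the 7694 loci. Nothing is read from these counts.

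**Figure D4:**
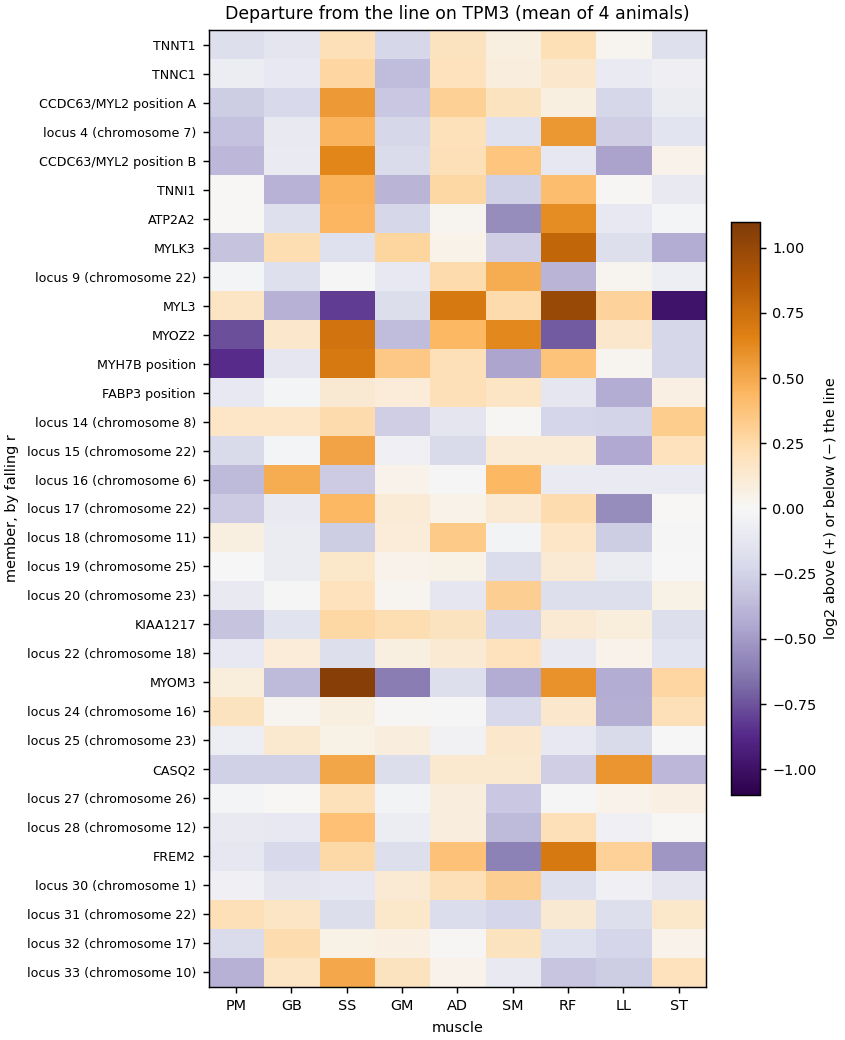
Distance of each of the 33 members from its fitted line on TPM3, in log2 units, as the mean of 4 animals, by muscle. Orange is above and purple below the line. MYL3 is the lowest in SS (-0.81) and ST (-0.98) and the highest in RF (0.98), and MYOM3 is the highest in SS (1.06).

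Pairs of members also showed what was left after the line on TPM3 had been removed. Over the 528 pairs the median correlation was 0.758 with TPM3 included, and 0.122 after the line was removed, with a range from -0.611 to 0.791. The highest remaining values were 0.791 between TNNT1 and locus 4, 0.754 between locus 4 and TNNI1, and 0.732 between TNNT1 and TNNC1. The lowest was -0.611, between position A of CCDC63/MYL2 and locus 31. These correlations are over the 36 samples, share libraries and totals, and are given with no test.

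Gene lists for muscle functions were compared with the members as far as coordinates allowed. Of 20 genes listed for the slow sarcomere, 8 could be placed on 1 locus each, and 7 of these were members (TNNT1, TNNC1, TNNI1, MYLK3, MYL3, MYOZ2 and MYOM3). Their median r with the exception included was 0.915, against 0.128 over all loci. The exception was the locus at the coordinates printed for PDLIM1, a Z-disc adaptor, with r = 0.161. Its mean of 13.5 counts is near the count minimum, and its name rests on those coordinates alone. Of 21 calcium-handling genes 3 could be placed, with ATP2A2 and CASQ2 as members and PVALB, the calcium buffer parvalbumin of fast fibres, at r = -0.367 with a mean of 11.6 counts. For glycolysis and glycogen, PPP1R3D had r = -0.0406, and among fibre-type regulators EYA1 had r = 0.119 with a mean of 11.9 counts. The coordinates come from genes that the study listed for differences between these same samples, so the counts are not independent evidence, and lists of fast sarcomere and mitochondrial genes could not be placed at all.

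For single pairs of muscles, members were counted past thresholds set over all loci, in edgeR's quasi-likelihood fit with muscle and animal, with the false discovery rate (FDR) held to 0.01 or less and a log2FC beyond 1 in size. These samples had chosen the members, and TPM3 differs between these muscles, so the direction of the counts was fixed by the choice and the counts are no test of the members. Between SS and ST, 24 of 33 members were past both thresholds and higher in SS, beside 1.52% of 12461 loci tested that were higher in SS and 2.29% called in either direction. Between SM and SS 14 were higher in SS, beside 2.42% in that direction and 2.91% in either. Between LL and SS 18 were higher in SS, beside 1.16% in that direction and 2.42% in either. Between ST and GM 19 were higher in GM, beside 1.52% in that direction and 2.21% in either. Nothing is read from these shares. The fit without animal called 6 members between SM and SS, beside 115 loci in either direction against 363 in the main fit. Leaving out 1 animal gave 15, 8, 9 and 7 members for animals 1 to 4, beside 298, 249, 129 and 145 loci. The calls over all loci thus fell as well. Leaving out animal 3 lowered the count between LL and SS to 11 members, and to 166 loci from 301. Past the thresholds in all 4 comparisons were 9 members, and 8 in none, and the same counts over all loci were not made.

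Differences between the 4 animals were not used in choosing the members, since each animal's mean had been subtracted, and could be tested. In the same fit, 16 of 33 members differed between animals with an FDR not above 0.01 (the animal term by edgeR's quasi-likelihood test, Benjamini-Hochberg adjusted over 12461 loci). Over all loci tested 17.0% were called, and over the 7694 loci from which the members came 15.9%. TPM3 was itself called, with an FDR of 0.00134 and animal means of 7.74, 7.86, 8.48 and 8.29 on the log2(CPM + 1) scale for animals 1 to 4. Animal 3 was the highest and animal 1 the lowest, 0.75 apart. The test takes the 9 muscles of an animal as repeats, so it speaks of these 4 animals only. Libraries were run in 4 lanes of 9 with the assignment not given. If a lane held the 9 muscles of an animal, lane and animal cannot be told apart in this test.

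Members called between animals included contractile genes and unnamed loci. MYOZ2 had animal means of 5.79, 5.70, 6.58 and 5.86, with animal 3 the highest (FDR = 7.46e-05, edgeR). MYOM3 (0.00794) and MYLK3 (0.00905) were also called and highest in animal 3. FREM2 ranged over 1.48 log2 units, with means of 2.79, 3.60, 4.27 and 3.76 (FDR = 3.78e-05, edgeR). The member at the FABP3 position was lowest in animal 2 (3.98e-04) and KIAA1217 was highest there (0.00859). The troponins, ATP2A2, MYL3, CASQ2, locus 4 and the members at the MYL2 and MYH7B positions were not called, with FDR from 0.0287 for TNNI1 to 0.901 for position A, which does not show that they were equal.

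The smallest p belonged to locus 31, with animal means of 6.15, 5.85, 6.92 and 6.24 (FDR = 6.97e-09, edgeR). It was highest in animal 3, where its ST level was 97.7 CPM against 37.0, 40.8 and 38.7 CPM in the other animals. Locus 28 went the other way, with means of 6.09, 5.74, 5.001 and 5.80 and its lowest level in animal 3 (FDR = 1.39e-06, edgeR). Locus 15 had means of 1.73, 3.04, 3.37 and 2.65 (4.87e-05), and locus 16 of 4.27, 4.74, 5.39 and 4.60 (6.90e-05). Both were highest in animal 3 and lowest in animal 1. Of the 18 unnamed members 10 were called, and of the 15 others 6.

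Animal 3 had the highest mean for 21 of 33 members, while it was highest for 1489 of the 7694 loci. Among the 16 called members it was highest for 10, and among the 1220 called loci of the 7694 for 312. The median deviation of all 7694 loci was -0.02 log2 units in animal 3 and -0.05 in animal 1, against 0.21 and -0.19 for the members. Animal 1 had the smallest totals of the 4, and their part in these differences was not tested. Loci with more counts were called more often, from 11.5% of those with a mean of 10 to 50 counts to 28.7% of those with 500 or more. Of the members, 4 of 6 were called between 10 and 50 counts, 5 of 9 between 50 and 100, 6 of 13 between 100 and 500, and 1 of 5 from 500. The count of members called rests on animal 3 in particular. Without animal 3 it was 5 of 33, beside 1284 of 12635 loci tested, and without animal 1 it was 10, beside 1157 of 12658. Without animal 2 it was 14, beside 1705 of 12263, and without animal 4 it was 14, beside 1423 of 12311. The calls over all loci thus fell as well. With at least 10 counts required in every sample, 9 of the 25 members left were called, beside 1111 of 5151 loci.

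**Figure D5:**
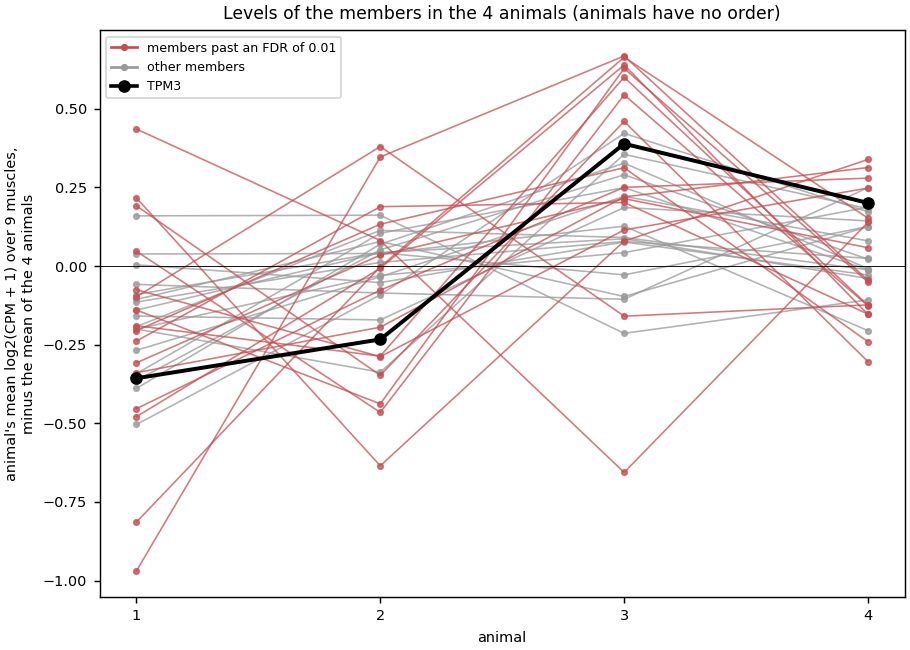
Mean log2(CPM + 1) of each member over 9 muscles in animals 1 to 4, minus the mean of the 4 animals, with the 16 members past an FDR of 0.01 in red, the other members in grey and TPM3 in black. Lines only connect the values of a locus, as animals have no order. Animal 3 is the highest for 21 of 33 members.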

How the data were processed

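Counts of 36 samples were used. The authors aligned 100-base paired reads to Oar_v3.1 with TopHat2 2.0.13, merged Cufflinks 2.2.1 assemblies with the Ensembl annotation, and counted reads per locus with HTSeq. The deposited counts are whole numbers without normalization, and 31530 entries name 31136 loci, each used once, of which 24763 carry an Ensembl gene. CPM used the total over these loci. The members and gene lists were chosen with earlier results of these data known. The precision of a level follows from its counts, and intervals are not given since 4 animals carry the error.

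Models were fitted with edgeR 4.0.16 (R 4.3.3, limma 3.58.1) on 12461 loci left by filterByExpr, with TMM normalization, muscle and animal as terms, and Benjamini-Hochberg adjustment. The animal number in the labels pairs samples across muscles, and the study's methods also adjust for animal. DESeq2 1.42.0, the likelihood ratio test, other filters and normalizations, the fit without animal and each animal left out were alternatives. Correlations used Python 3.11.15, pandas 2.3.3 and numpy 2.4.6. Both procedures were tested on simulated data.

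Full values were to be given for TPM3 and the 20 members of largest r, and values also for members on a gene list, the 5 with the smallest p between animals and the 5 loci on either side of the threshold. Not every sample is printed for each of these. The muscles given for a locus, and the pairs PM and SS, SM and RF, and RF and LL, were chosen after their values were seen. Symbols were assigned only where coordinates of the study fell within 1 locus with an Ensembl gene and a mean of at least 10 counts. MYLK3 is an exception, since its printed start lies outside its locus and only its printed end lies within it. Loci below that minimum were not considered, and some share the coordinates of a named member, as at KIAA1217. Cell type markers, promoter motifs and the quantitative RT-PCR values were not analysed here.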

Additional observations from a re-analysis of the deposited data

Results flagged for a closer look

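For TPM3 and the 20 members of largest r, each of 189 groups of 4 samples, a locus in a muscle, was searched for a single sample far from the other 3 with Dixon's test. It marked 6, while chance marks about 1 group in 20. Position B of CCDC63/MYL2 in ST was high in animal 4, at 20.7 CPM against 9.04 to 10.3 CPM in the other animals. ATP2A2 in ST was low in animal 1, at 151 CPM against 210.2 to 224 CPM in the other animals. MYL3 in LL was high in animal 3, at 117 CPM against 72.8 to 76.2 CPM in the other animals. MYOZ2 in SS was high in animal 3, at 289 CPM against 180.4 to 188 CPM in the other animals. The member at the MYH7B position in SS was low in animal 1, at 196 CPM against 314 to 342 CPM in the other animals. Locus 15 (chr22:14761187-14798318) in RF was low in animal 1, at 2.05 CPM against 4.59 to 5.13 CPM in the other animals. The samples marked come from animals 1, 3 and 4, and none was left out for this reason.

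Loci without an Ensembl gene took no part in the choice of members. Of 1639 such loci with a mean of at least 10 counts, 5 (0.305%) also had r of at least 0.75 with TPM3, and their median r was 0.2498. 1 of them has the coordinates of TPM3 (r = 0.933) and 1 those of MYLK3 (0.825). The others are chr1:230473614-230478546 (0.886), chr16:19769562-19905869 (0.885) and chr16:19691070-19694451 (0.875). All 5 were higher in SS than in ST in 4 of 4 animals, by 2.66 to 4.14 on the log2(CPM + 1) scale.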

How the results depend on the processing

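The number of members was 33. It moved to 56 with a threshold of 0.70, which held all 33, and to 21 without the 4 ST samples, of which 18 were among the 33. It was 28 with no replicate block, that is without subtracting animal means, and 22 to 37 under the other alternatives to the rule, with 34 to 42 when 1 animal was left out. The pairing is by animal. With no replicate block the counts of members called were 22 between SS and ST, 6 between SM and SS, 14 between LL and SS and 15 between ST and GM. Over all loci the counts in either direction were 130, 115, 171 and 112 of 12461. Leaving out 1 animal gave 23 to 25, 7 to 15, 11 to 19 and 14 to 18 members in these comparisons. The counts over all loci were then 166 to 262, 129 to 298, 166 to 323 and 115 to 227. Between animals it gave 5 to 14 members and 1157 to 1705 loci. With at least 10 counts in every sample, 12 of 25 members and 113 of 5151 loci were called between ST and GM, and 9 members and 1111 loci between animals. An FDR of 0.05 called 3573 loci between animals. These 2 settings change how many loci are tested or the threshold itself. For the other values that moved, the cause was not tested. The log2FC of SS against ST was positive in all 400 values of TPM3 and the members under the alternatives, from 0.35 to 4.58. This direction follows from the choice of members. Of the 400 values, 12 were newly past the thresholds and 5 no longer past them. Depth limits the members with a mean below 50 counts, of which there are 6.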
